A study of Mus musculus with 6 samples.

Results

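Sialyltransferases add sialic acid to the ends of glycan chains in the Golgi, and sialidases (neuraminidases) take it off. The acids carry negative charge, mask the galactose beneath them and are read by lectins such as the Siglecs, so their amount and linkage shape how a lymphocyte binds to other cells. On T cells, sialylation is known to differ between resting and activated states. The 10 genes described here are 8 sialyltransferases (St6gal1, St3gal1, St3gal2, St3gal3, St3gal4, St3gal6, St6galnac4 and St6galnac6) and 2 sialidases (Neu1 and Neu3), taken by name from 46517 gene identifiers. They were selected on their fold changes and calls in this same comparison of libraries, which were already known. Their differences between the groups are therefore given as a description, without p-values.

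The libraries hold poly(A) RNA of CD8 T cells of C57BL/6J mice, in 3 replicates with IL-3 basophil supernatant and 3 with PBS basophil supernatant. Naive T cells from spleen and lymph nodes were stimulated for 3 days on plates coated with 5 μg/mL of antibody to CD3, with 0.5 μg/mL of antibody to CD28 and 100 units/mL of IL-2. From day 1 to day 2 they were given medium in which sorted basophils had spent 2 days with 100 units/mL of IL-2, together with IL-3 (3 ng/mL) in the one case and PBS in the other. IL-2 was thus common to all cultures, and the labels do not say whether IL-3 itself was removed from the medium. The age of the mice is not given in the sources used here. The labels also do not say whether replicates were separate mice or cultures, and each p-value given here is therefore set against a spread among libraries that could be technical.

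Library depth ran from 17377052 to 22174902 expected counts, so that 3 counts in a library correspond to 0.135 to 0.173 CPM (counts scaled to the same total in each library). This floor uses the library totals as counted, whereas the other CPM given here use TMM-scaled library sizes. In the fit across all 12407 genes that passed the filter on low counts, 3835 were called at an edgeR adjusted p below 0.05, which is 30.9% of them. All 9 CD8 T cell markers were detected, with summed levels of 1907 to 2093 CPM with IL-3 supernatant and 2741 to 2904 CPM with PBS supernatant (7 called lower and 1 higher). The 8 basophil and mast cell markers summed to at most 0.991 CPM in any library, and Mcpt8, Fcer1a, Ms4a2 and Prss34 had no count in any. Markers of macrophages and dendritic cells summed to 1.40 to 2.60 CPM with IL-3 supernatant and 1.66 to 2.91 CPM with PBS supernatant, and those of NK cells to at most 0.258 CPM. In bulk RNA, fewer cells of a type and less RNA per cell cannot be told apart, and this holds for each result that follows.

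Of the 10 genes, 4 were called higher with IL-3 supernatant (St3gal1, St3gal2, St6galnac6 and Neu1), beside 14.8% of all tested genes. Another 3 were called lower (St6gal1, St3gal4 and St3gal6), beside 16.1%, and St3gal3, St6galnac4 and Neu3 did not pass. All 10 genes passed the filter, and the groups did not overlap in 8, beside 43.6% of all tested genes. Their median log2 fold change was -0.04 and their median absolute log2 fold change 0.44, beside medians of -0.0047 and 0.20 over all tested genes (every log2 fold change here has IL-3 on top and PBS supernatant below). St6gal1 stood apart from the other 9 by its size.

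**Figure D1:**
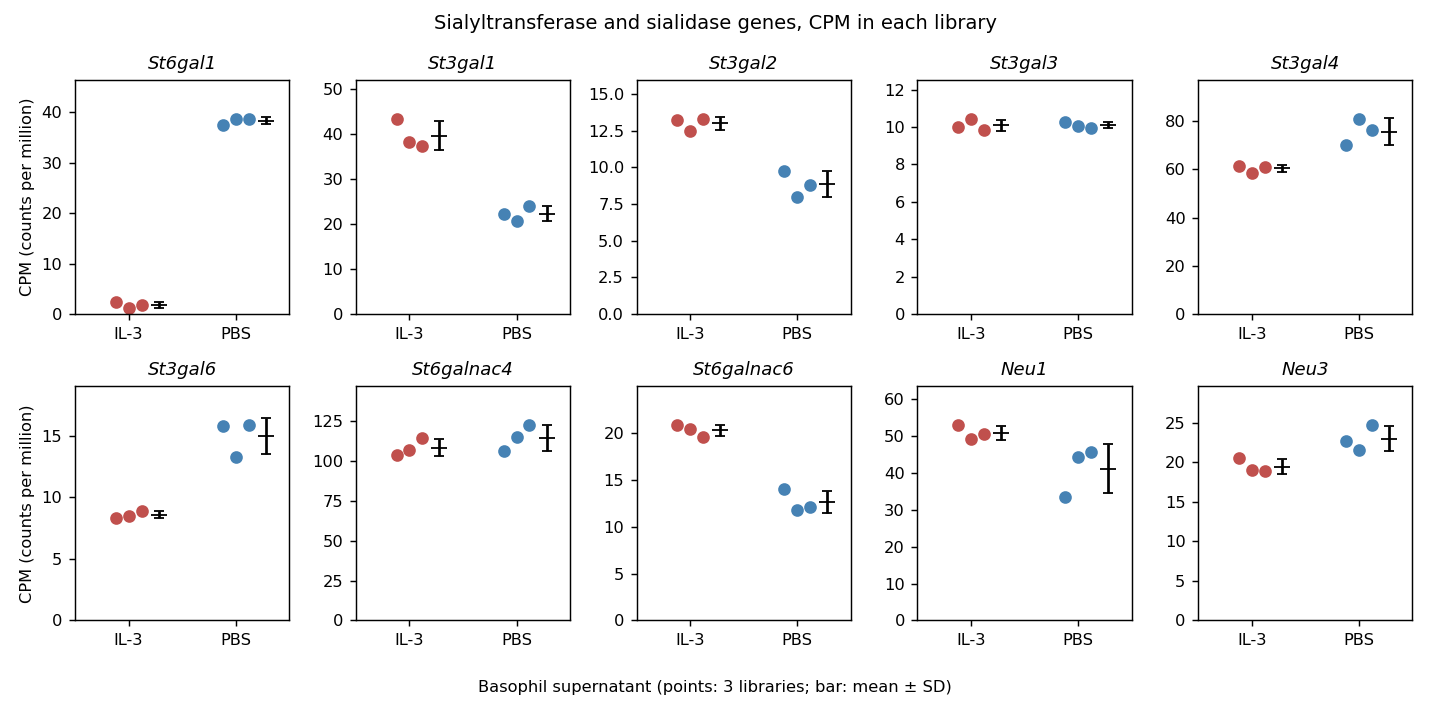
CPM of the 10 genes in each library, on axes that start at 0, with IL-3 supernatant on the left and PBS supernatant on the right of each panel (points are libraries; the bar is the mean ± SD, n = 3). St6gal1 was 1.78 CPM on average with IL-3 supernatant and 38.3 CPM with PBS supernatant, whereas St3gal3 was 10.1 CPM in both groups.

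St6gal1 (ENSMUSG00000022885, chromosome 16, 23224740 to 23360350, plus strand, GRCm38) encodes the enzyme that caps galactose of N-glycans with sialic acid in the ST6-type linkage, the form that the B cell Siglec CD22 reads. It had 48, 25 and 34 counts in the IL-3 supernatant libraries, against 675, 698 and 679 counts in the PBS supernatant libraries. In CPM this was 2.47, 1.13 and 1.74 with IL-3 supernatant, against 37.6, 38.7 and 38.7 with PBS supernatant. The highest IL-3 supernatant library lay far below the lowest PBS supernatant library, and the PBS supernatant libraries differed little among themselves. The log2 fold change was -4.44 (SE 0.17), a level 21.8-fold lower, and leaving out any 1 library gave values between -4.75 and -4.17. Among all tested genes, 13 had a lower log2 fold change. Exons of St6gal1 share 4.07% of their bases with BC106179 on the opposite strand, which had at most 4 counts in a library.

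The annotation gives St6gal1 more than 1 start, and transcript shares could be read in PBS supernatant replicate 2, the library whose deposited TPM (transcript abundance scaled for length and library size) are per isoform. There, the transcript that begins at 23224740 took 8.40 TPM, or 51.0% of the gene. The transcript that begins at 23226021, 1281 bases downstream, took 8.03 TPM, or 48.7%. The transcript that begins at 23290470 took 0.298%, and the other annotated transcripts took practically nothing. The TPM of St6gal1 in that library were thus assigned almost evenly to transcripts from 2 neighbouring starts. Isoform tables of the IL-3 supernatant libraries were not analysed here.

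The 250 bases before each of these starts are shown for the gene with the largest difference. In the library with isoform values, its TPM were assigned to transcripts from both, and use of the starts was not measured directly. The stretches come from RefSeq (GRCm38.p6, plus strand) and lie at chr16:23224490-23224739 and chr16:23225771-23226020. Capitals mark every CACCC on either strand (GGGTG on the plus strand), the motif of KLF-type factors.
St6gal1, upstream start: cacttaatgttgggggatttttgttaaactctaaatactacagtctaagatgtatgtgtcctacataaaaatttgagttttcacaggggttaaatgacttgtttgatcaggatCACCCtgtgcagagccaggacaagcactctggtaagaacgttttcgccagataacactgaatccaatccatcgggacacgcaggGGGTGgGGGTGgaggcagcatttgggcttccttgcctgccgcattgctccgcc
St6gal1, downstream start: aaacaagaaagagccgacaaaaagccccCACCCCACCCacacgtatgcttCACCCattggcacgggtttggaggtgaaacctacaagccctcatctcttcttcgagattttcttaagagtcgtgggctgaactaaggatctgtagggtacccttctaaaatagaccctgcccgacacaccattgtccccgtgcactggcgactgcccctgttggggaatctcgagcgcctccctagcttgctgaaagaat

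Each stretch held 3 such matches, 2 of them close together in each. Windows that run from 250 bases before to 50 bases after a start were available for 8 of the 10 genes, 11 windows in all, and 32851 over all genes. They were counted whether or not transcripts began there in PBS supernatant replicate 2. In that library, transcripts at the St6galnac6 window took practically none of their gene. Those at 1 St3gal6 window took 3.815%, and those at 1 St6gal1 window 0.298%. No listed transcript matched the start of the St3gal3, St3gal4 and St6galnac4 windows or of the other St3gal6 window. Listed transcripts of these genes began close by, for St3gal4 at 35116873 against 35116864 for its window. CACCC or its complement was in all 3 windows of St6gal1 and in 7 of the 11 windows, beside 57.5% of all windows. The GC box GGGCGG, searched on both strands, was in 7 of the 11 windows beside 35.7% of all, and in 1 of the 3 of St6gal1. The STAT5-type motif TTCNNNGAA and the STAT6-type motif, the same ends with a spacer longer by 1 base, were in none of the 11 windows, beside 8.3% and 6.95% of all windows. These matches describe letters in these windows and say nothing of factor binding.

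St3gal1, on chromosome 15 (67102875 to 67176830), encodes the main enzyme that caps core 1 O-glycans in the ST3-type linkage, in T cells a cap known to be lost on activated CD8 cells of mice. It stood at 43.3, 38.2 and 37.2 CPM with IL-3 supernatant, against 22.1, 20.6 and 23.9 CPM with PBS supernatant. All IL-3 supernatant libraries were above all PBS supernatant libraries, and the log2 fold change was 0.83 (SE 0.09), a 1.78-fold higher level. St3gal2 on chromosome 8 (110919922 to 110972480), which acts on core 1 O-glycans and on gangliosides, had 13.2, 12.5 and 13.3 CPM with IL-3 supernatant, against 9.74, 7.98 and 8.84 CPM with PBS supernatant. Again the groups did not overlap (log2 0.56, SE 0.13). The call of St3gal2 was lost in limma on TPM of 5 libraries, where its log2 fold change was 0.28 with a pseudocount of 1. It was lost on TPM of 6 libraries as well (log2 0.39).

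St3gal4 and St3gal6 encode enzymes that cap N-glycans and lactosamine chains in the ST3-type linkage and contribute to ligands of selectins. St3gal4 (chromosome 9, 35046576 to 35119268) was at 61.4, 58.7 and 61.1 CPM with IL-3 supernatant, against 70.0, 81.0 and 76.2 CPM with PBS supernatant. It was slightly lower in every IL-3 supernatant library (log2 -0.33, SE 0.07), in each case below the lowest PBS supernatant value. St3gal6 (chromosome 16, 58468125 to 58524243) was at 8.34, 8.51 and 8.88 CPM with IL-3 supernatant, against 15.8, 13.3 and 15.9 CPM with PBS supernatant. The IL-3 supernatant libraries were close together and all below the others (log2 -0.80, SE 0.13). Exons of St3gal6 share 1603 bases, 26% of its annotated exonic bases, with Dcbld2 on the opposite strand. Exons of St3gal4 share 14.1% of theirs with 4930581F22Rik on the opposite strand. The strand setting of the counting is not given in the sources used here, so reads from such overlaps cannot be told apart. Dcbld2 had 119, 106 and 111 counts in the IL-3 supernatant libraries, against 87, 75 and 69 counts in the PBS supernatant libraries, the opposite order to St3gal6. For 4930581F22Rik the counts were 82, 97 and 61 with IL-3 supernatant, against 65, 68 and 69 with PBS supernatant, and the groups were intermixed.

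St3gal3 (chromosome 4, 117932154 to 118134914), another N-glycan enzyme of the ST3 type, had 9.99, 10.4 and 9.85 CPM with IL-3 supernatant, against 10.3, 10.1 and 9.98 CPM with PBS supernatant. The libraries of the groups were intermixed, the log2 fold change was -0.0027 (SE 0.13), and its sign turned under several settings. The St3gal genes therefore gave calls in both directions, with the O-glycan enzymes St3gal1 and St3gal2 higher and St3gal4 and St3gal6 lower.

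**Figure D2:**
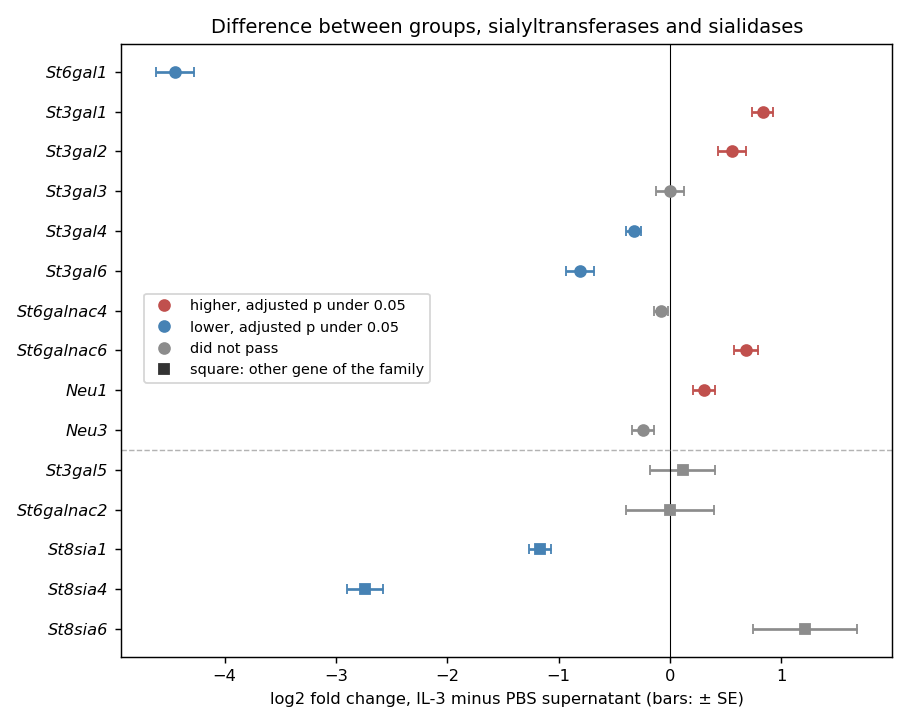
Log2 fold change, IL-3 minus PBS supernatant, of the 10 genes (circles) and of the 5 other tested genes of the family (squares), with bars of ± 1 SE. Red marks genes called higher, blue genes called lower and grey genes that did not pass; St6gal1 lies at -4.44, and St8sia4 at -2.74 among the other genes.

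St6galnac4 and St6galnac6 lie next to each other on chromosome 2, on the same strand. They run from 32587095 to 32599698 and from 32599709 to 32620806, 11 bases apart in the annotation. By the isoform values of PBS supernatant replicate 2, the St6galnac6 transcript that begins at 32599709 took practically nothing. Its leading transcripts there begin further downstream, at 32606961 and 32607026. St6galnac4 encodes an enzyme that adds a sialic acid to core 1 O-glycans already capped by a ST3-type enzyme. It was at 104, 107 and 114 CPM with IL-3 supernatant, against 106, 115 and 122 CPM with PBS supernatant, and these values overlapped (log2 -0.08, SE 0.06). St6galnac6, whose enzyme is known to act on gangliosides and other chains, was at 20.8, 20.4 and 19.6 CPM with IL-3 supernatant, against 14.0, 11.8 and 12.1 CPM with PBS supernatant. Here every IL-3 supernatant library was above every PBS supernatant library (log2 0.68, SE 0.11). The adjacent genes thus had unlike differences, which were not tested against each other.

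Of the sialidases, Neu1 (chromosome 17, 34931253 to 34935953) encodes the lysosomal enzyme and Neu3 (chromosome 7, 99811439 to 99828417) one of the plasma membrane that prefers gangliosides. Neu1 had 53.0, 49.4 and 50.5 CPM with IL-3 supernatant, against 33.6, 44.4 and 45.7 CPM with PBS supernatant. PBS supernatant replicate 1 was well below the other libraries of its group. The log2 fold change was 0.31 (SE 0.10), and 0.18 without that library. The call was lost without it and without any of the IL-3 supernatant libraries (log2 0.28, 0.34 and 0.31 without replicates 1, 2 and 3). Neu3 had 20.5, 19.0 and 18.8 CPM with IL-3 supernatant, against 22.7, 21.6 and 24.7 CPM with PBS supernatant. Its groups did not overlap, but it did not pass (log2 -0.24, SE 0.10). Of the partners of Neu1 in its lysosomal complex, Ctsa (protective protein) was at 51.7 ± 2.21 CPM with IL-3 supernatant and 55.7 ± 3.09 CPM with PBS supernatant, and Glb1 (beta-galactosidase) at 43.1 ± 1.47 and 37.6 ± 2.23 CPM in the same order (SD, n = 3 each). Neither passed.

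Levels of different genes were compared in TPM, with the isoform values of PBS supernatant replicate 2 summed per gene. St6galnac4 and St3gal4 were the most abundant of the 10 genes in both groups. St6galnac4 averaged 73.6 ± 4.14 TPM with IL-3 supernatant and 73.7 ± 6.80 TPM with PBS supernatant, and St3gal4 averaged 58.3 ± 1.69 and 71.7 ± 3.07 TPM in the same order (SD, n = 3 each). With IL-3 supernatant the order below them was Neu1, St6galnac6, St3gal1, Neu3, St3gal6, St3gal3, St3gal2 and St6gal1, and no neighbours in that order had overlapping ranges. With PBS supernatant the order below them was Neu1, St3gal6, St6gal1, Neu3, St6galnac6, St3gal1, St3gal3 and St3gal2. In that group the ranges overlapped between St6galnac4 and St3gal4, between St3gal6 and St6gal1, between Neu3 and St6galnac6 and between St3gal1 and St3gal3. St6gal1 was thus last with IL-3 supernatant, at 0.921 ± 0.418 TPM, and in place 5 with PBS supernatant, at 17.8 ± 1.21 TPM (SD, n = 3 each).

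The TPM of the 8 sialyltransferases summed to 195, 185 and 197 with IL-3 supernatant, against 209, 207 and 226 with PBS supernatant. St6gal1 made up 0.711%, 0.313% and 0.406% of that sum with IL-3 supernatant, against 9.01%, 7.95% and 8.02% with PBS supernatant. St3gal1 made up 8.68%, 8.08% and 7.51% with IL-3 supernatant, against 4.20%, 3.69% and 4.14% with PBS supernatant. Every IL-3 supernatant sum was below every PBS supernatant sum, and the shares of these 2 genes did not overlap between the groups either. Over all 20 sialyltransferase genes of the family, these 8 held 94.5% to 95.3% of the TPM with IL-3 supernatant and 91.0% to 91.3% with PBS supernatant.

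**Figure D3:**
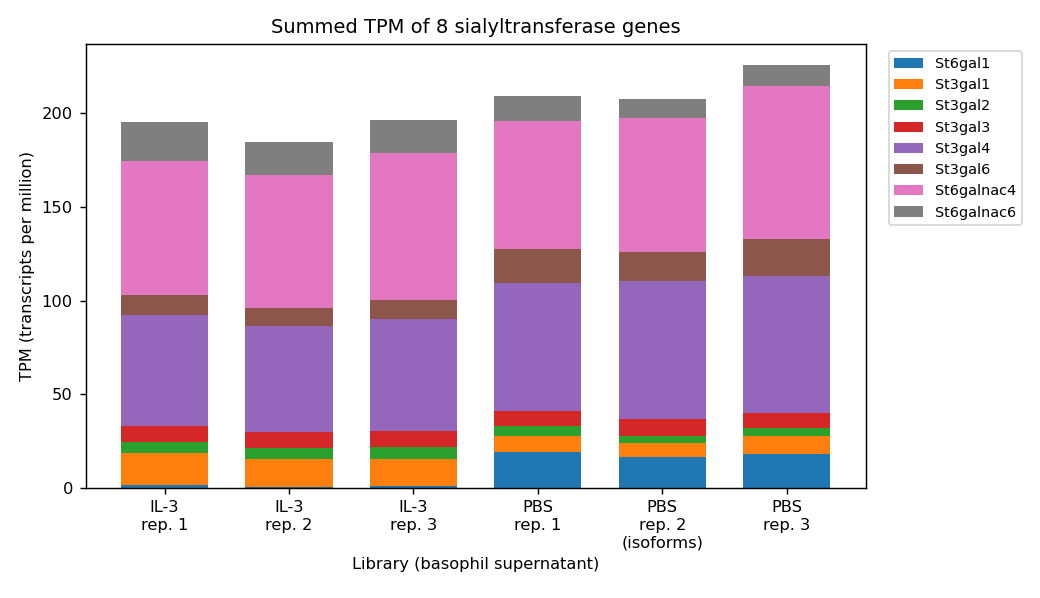
TPM of the 8 sialyltransferase genes stacked for each library, IL-3 supernatant on the left and PBS supernatant on the right; PBS replicate 2 shows isoform values summed per gene. The St6gal1 segment at the base is 0.579 to 1.39 TPM in IL-3 supernatant libraries and 16.5 to 18.9 TPM in PBS supernatant libraries, while St6galnac4 and St3gal4 together make up most of every bar.

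The family has 14 further genes, of which 5 passed the filter, 2 were called lower (beside 16.1% of all tested genes) and none higher (beside 14.8%), and 7 had no count in any library (DESeq2 and limma also called none higher; at an unadjusted edgeR p below 0.05, 1 was higher, St8sia6). St8sia4 encodes the polysialyltransferase of immune cells, which extends chains of sialic acid. It was at 2.57, 3.96 and 2.96 CPM with IL-3 supernatant, against 24.3, 19.2 and 20.4 CPM with PBS supernatant (log2 -2.74, SE 0.16, edgeR adjusted p = 1.2e-09). St8sia1 encodes the synthase of the ganglioside GD3, and it was at 14.0, 14.6 and 14.7 CPM with IL-3 supernatant, against 28.8, 34.6 and 33.5 CPM with PBS supernatant (log2 -1.16, SE 0.10, edgeR adjusted p = 1.0e-07). In both genes every IL-3 supernatant library was below every PBS supernatant library.

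The other 3 tested genes did not pass. St8sia6 was low, at 1.18 ± 0.449 CPM with IL-3 supernatant and 0.504 ± 0.110 CPM with PBS supernatant (SD, n = 3 each; log2 1.22, SE 0.47, edgeR adjusted p = 0.059). St3gal5, the synthase of the ganglioside GM3, was at 2.59 ± 0.335 and 2.39 ± 0.438 CPM in the same order, and St6galnac2 at 1.18 ± 0.180 and 1.18 ± 0.284 CPM. Below the filter, St6galnac3 had 0, 1 and 0 counts with IL-3 supernatant, against 6, 12 and 1 counts with PBS supernatant, and St6galnac5 had at most 2 counts in a library. St6gal2, the other gene for an enzyme of the St6gal1 kind, had no count in any library, as had St6galnac1, St8sia2, St8sia3, St8sia5, Neu2 and Neu4.

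Genes of sialic acid synthesis, transport, modification and breakdown formed a list of 18, of which 17 passed the filter, 4 were higher (beside 14.8% of all tested genes), 4 lower (beside 16.1%) and 9 did not pass (median log2 fold change -0.06, against -0.0047 over all tested genes). Gfpt1, which starts the hexosamine pathway, rose to 141 ± 1.49 CPM with IL-3 supernatant, against 101 ± 7.02 CPM with PBS supernatant (SD, n = 3 each; log2 0.48, SE 0.06, edgeR adjusted p = 1.1e-05). Slc35a1, the Golgi transporter of the activated sugar CMP-sialic acid, rose to 27.2 ± 0.941 CPM, against 20.7 ± 1.26 CPM with PBS supernatant (log2 0.39, SE 0.09). Gnpnat1 and Renbp were also higher. Cmah, the hydroxylase that turns the Neu5Ac form of sialic acid into Neu5Gc in mice, fell to 25.1 ± 1.72 CPM with IL-3 supernatant, against 56.0 ± 7.53 CPM with PBS supernatant (log2 -1.16, SE 0.10, edgeR adjusted p = 1.2e-07). Uap1 of the hexosamine pathway (log2 -0.36), the sialic acid O-acetyl esterase Siae (-0.55) and the O-acetyltransferase Casd1 (-0.39) fell too. Gne, the key enzyme of sialic acid synthesis, did not pass (36.9 ± 1.66 CPM with IL-3 supernatant and 42.3 ± 2.65 CPM with PBS supernatant), nor did Nans and Cmas. The number called lower was 2 instead of 4 without IL-3 supernatant replicate 1, without IL-3 supernatant replicate 3 and in fits on TPM, and with the replicate number as a block Renbp (adjusted p = 0.0759) and Casd1 (adjusted p = 0.0516) lost their edgeR calls. Both of these calls were also lost without any 1 of 4 libraries (replicates 1 and 3 of either group). Siae lost its call without IL-3 supernatant replicates 1 or 3 or PBS supernatant replicate 2.

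Among 16 tested genes of 18 that branch and galactosylate N-glycans, the acceptors of St6gal1, 4 rose (beside 14.8% of all tested genes), 6 fell (beside 16.1%) and 6 did not pass (median log2 fold change 0.06). Fut8, which adds the core fucose, fell to 9.87 ± 0.159 CPM with IL-3 supernatant, against 21.9 ± 1.60 CPM with PBS supernatant (SD, n = 3 each; log2 -1.15, SE 0.11, edgeR adjusted p = 3.5e-07). The branching gene Mgat4a (log2 -0.81) and the galactosyltransferase gene B4galt1 (-0.49) were lower, as were Man2a1, Mgat1 and B4galt4. Mgat5, whose enzyme makes the branch that galectins bind best, was higher (log2 0.24, SE 0.07), with B3gnt2, B4galt2 and B4galt3. The number called higher was 2 without IL-3 supernatant replicate 3 and 2 without PBS supernatant replicate 3. B4galt3 lost its call without either of these or IL-3 supernatant replicate 1, and Mgat5 without either of these or IL-3 supernatant replicate 2. Without that last library the number called higher was still 4, so another gene of the list gained a call there. Mgat1 lost its call without IL-3 supernatant replicate 2, PBS supernatant replicate 2 or PBS supernatant replicate 3, and when scaled by library size only.

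Of 17 tested genes of mucin-type O-glycans and selectin ligands, from a list of 19, 8 fell (beside 16.1% of all tested genes), 1 rose (beside 14.8%) and 8 did not pass (median log2 fold change -0.30). Fut7, the fucosyltransferase of selectin ligands, fell to 4.51 ± 0.357 CPM with IL-3 supernatant, against 10.0 ± 1.13 CPM with PBS supernatant (SD, n = 3 each; log2 -1.15, SE 0.16, edgeR adjusted p = 3.1e-05). Fut4 (log2 -0.91) and the sulfotransferase gene Chst2 (-0.88) fell, and so did Gcnt1 (-0.71, SE 0.21), whose enzyme makes core 2 O-glycans and competes with St3gal1 for core 1. The call of Gcnt1 was lost without IL-3 supernatant replicate 2 and without PBS supernatant replicate 3. Galnt6, Galnt7, Galnt11 and Galnt12, which start O-glycans, were lower, and Galnt10 was higher (log2 0.79). The call of Galnt6 was lost without any 1 of the libraries but PBS supernatant replicate 1. C1galt1 and its chaperone C1galt1c1, which make core 1 itself, did not pass.

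Of 9 tested ganglioside genes from a list of 10, 4 fell (beside 16.1% of all tested genes), 1 rose (beside 14.8%) and 4 did not pass (median log2 fold change -0.42). B4galnt1, the synthase of GM2 and GD2, fell to 284 ± 29.1 CPM with IL-3 supernatant, against 436 ± 10.8 CPM with PBS supernatant (SD, n = 3 each; log2 -0.62, SE 0.07, edgeR adjusted p = 2.7e-06). Ugcg, which makes glucosylceramide (log2 -0.59), and Psap (-0.43) fell, and B4galt5, which makes lactosylceramide, rose (0.58).

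Lectins that bind sialic acid or galactose moved in both directions. Of 9 tested from a list of 16, 4 rose (beside 14.8% of all tested genes), 3 fell (beside 16.1%) and 2 did not pass (median log2 fold change 0.61). Selp, which encodes P-selectin, rose to 17.1 ± 2.22 CPM with IL-3 supernatant, against 2.75 ± 1.06 CPM with PBS supernatant (SD, n = 3 each; log2 2.63, SE 0.22, edgeR adjusted p = 1.1e-06). The galectin genes Lgals1 (log2 0.34) and Lgals3 (0.61) rose, and Lgals8 (-0.68) and Lgals9 (-0.56) fell. Siglec1, at a low level, rose (log2 1.01, SE 0.32), a call lost without IL-3 supernatant replicate 2 or PBS supernatant replicate 3. Cd22, the reader of the linkage that St6gal1 makes, was below the filter, with 12, 5 and 1 counts with IL-3 supernatant, against 2, 4 and 3 counts with PBS supernatant.

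All 16 sialylated glycoproteins of the T cell surface were tested, from a list that, as the others, was fixed with earlier results of these data known. Of these, 12 fell (beside 16.1% of all tested genes), 3 rose (beside 14.8%) and 1 did not pass (median log2 fold change -0.44). Cd8a and Cd8b1 are also among the CD8 T cell markers above. The P-selectin ligand gene Selplg fell to 182 ± 15.8 CPM with IL-3 supernatant, against 344 ± 14.4 CPM with PBS supernatant (SD, n = 3 each; log2 -0.92, SE 0.06, edgeR adjusted p = 7.9e-09). Cd8a (log2 -1.17), Emb (-0.59), Thy1 (-0.45) and Spn, the O-glycosylated CD43 (-0.23), were lower, with Cd8b1, Cd24a, Cd52, Itgal, Itgb2, Icam2 and Cd48. Cd44 (0.43), Cd5 (0.33) and Cd6 (0.33) were higher, and Ptprc, which encodes CD45, did not pass (-0.12, SE 0.06).

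**Figure D4:**
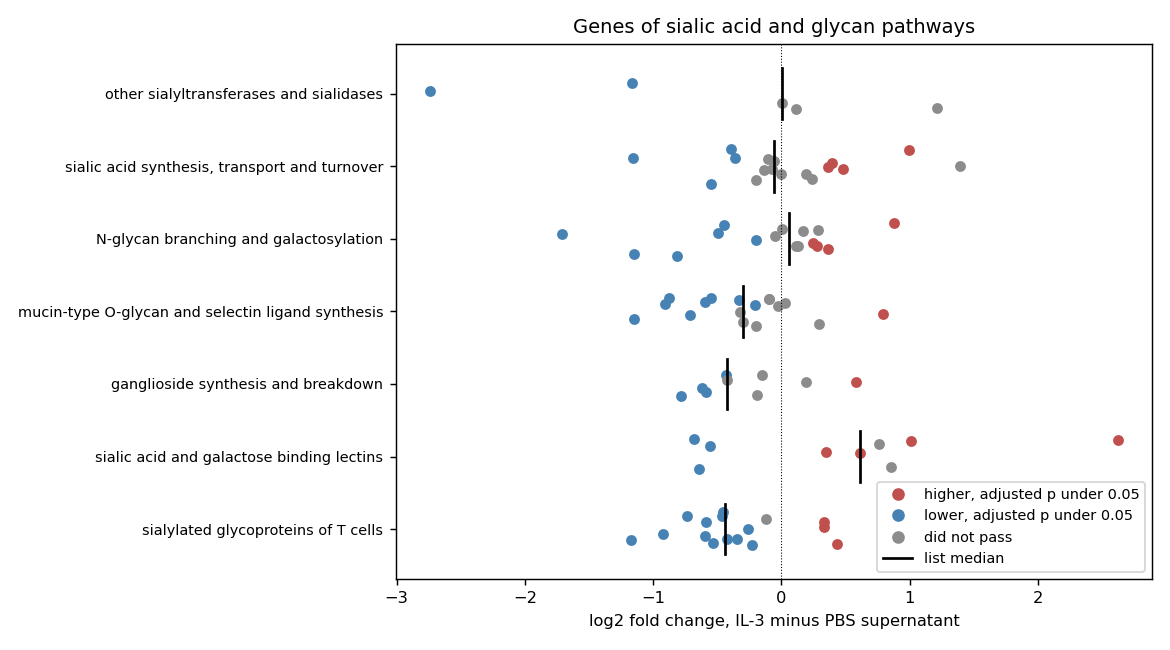
Log2 fold change, IL-3 minus PBS supernatant, of the tested genes of 7 lists (points, spread vertically for legibility; red called higher, blue called lower, grey did not pass; black line, list median). The list of T cell glycoproteins has 12 genes called lower and 3 higher, and the list of other sialyltransferases and sialidases has St8sia4 at its low end.

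B cells are known to carry much St6gal1, so their markers stand beside it. The 12 B cell markers, of which 3 passed the filter, summed to 110 to 133 CPM with IL-3 supernatant and 296 to 327 CPM with PBS supernatant, nearly all of it Ighm, at 117 ± 10.8 and 307 ± 16.2 CPM in the same order (SD, n = 3 each). Ighd had 7, 8 and 19 counts with IL-3 supernatant, against 60, 54 and 45 counts with PBS supernatant, and it was called lower (log2 -2.39), as was Ighm (-1.39). Cd79b had 47, 61 and 49 counts with IL-3 supernatant, against 40, 53 and 50 counts with PBS supernatant, and did not pass. The other 9 markers, among them Ms4a1, Cd79a and Pax5, were below the filter, with at most 12 counts in any library. Foxp3, the factor of regulatory T cells, was at 0.163 ± 0.104 CPM with IL-3 supernatant and 7.34 ± 2.38 CPM with PBS supernatant, and Cd4 at 0.301 ± 0.264 and 0.692 ± 0.214 CPM. The 4 markers of CD4 T cells summed to 18.1 to 20.03 CPM with IL-3 supernatant and 14.1 to 16.0 CPM with PBS supernatant. Zbtb7b made up most of the sum with IL-3 supernatant and was called higher, at 18.0 ± 1.30 CPM with IL-3 supernatant and 6.36 ± 1.72 CPM with PBS supernatant (SD, n = 3 each), whereas Foxp3 was called lower (log2 -5.43) and Cd40lg did not pass (-1.22). The part of Ighm- or Foxp3-expressing cells in the level of St6gal1 was not tested.

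The 5 tested genes whose centred log2 CPM over the 6 libraries were nearest to those of St6gal1 were Gm20559, Itih5, Ifi213, ENSMUSG00000103126 and Ifi214, with root mean square differences of 0.388 to 0.464. Itih5, which encodes an inter-alpha-trypsin inhibitor heavy chain, was the only one of them with a mean above 1 CPM in the IL-3 supernatant group. It was at 2.88, 1.98 and 3.06 CPM with IL-3 supernatant, against 37.6, 32.7 and 34.7 CPM with PBS supernatant. Gm20559 was at 0.263 ± 0.0824 CPM with IL-3 supernatant and 7.32 ± 0.907 CPM with PBS supernatant (SD, n = 3 each). For the low genes the nearness depends on the prior count of 2 added before the log. With 6 libraries in 2 groups, this ranking mostly finds genes with a like difference between the groups.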

How the data were processed

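Per the submitters' processing notes, RSEM 1.2.12, Bowtie2 2.2.0, edgeR 3.20.9 and GRCm38 were used; the sources used here do not state their roles, the annotation or the strand setting. Libraries were made from poly(A) RNA with an Illumina TruSeq kit, per the labels' protocols. The authors deposited expected counts per gene for 6 libraries, which divide reads that fit several genes, and these were rounded to whole numbers. They also deposited TPM per gene for 5 libraries and per isoform for PBS supernatant replicate 2; those were summed per gene (99.7% of TPM matched). Symbols matched 46005 of 46517 identifiers, and coordinates are from GENCODE M21. Those without a symbol took no more than 0.202% of the counts.

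Genes were tested by edgeR 4.0.16 under R 4.3.3 (filterByExpr, TMM, robust quasi-likelihood fit with 1 term for group, Benjamini-Hochberg over 12407 genes, threshold 0.05), tested on simulated data. The SE is the absolute log2 fold change divided by the root of F. CPM use TMM-scaled library sizes. Alternatives were DESeq2 1.42.0, DESeq2 size factors, library size only, other filters, limma 3.58.1 on voom values or log2 TPM, the replicate number as a block and each library left out. A fit without CT010467.1, annotated as rRNA, and a TPM fit on 6 libraries were added after seeing the data. CT010467.1 took 0.433% to 4.51% of a library. The highest share was in PBS supernatant replicate 2, the library with isoform values, against 0.612% and 0.433% in PBS supernatant replicates 1 and 3. Python 3.11.15, pandas 2.3.3 and matplotlib 3.10.9 were used.

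The 10 genes and all lists were chosen with earlier results of these data known. Named were these 10, the other family genes, up to 4 genes with the smallest p and those needed to account for a count in each list, the 5 genes most like St6gal1, and markers. Genes with other roles that did not pass (Gne, Nans, Cmas, Ctsa, Glb1, C1galt1, C1galt1c1, Ptprc) and Cd22 were named after their values were seen. No library pair within a group agreed within sampling noise. Pairs with PBS supernatant replicate 2 differed most, with a mean chi-square per gene of 63.8 and 60.3, against 13.4 for the other PBS supernatant pair. Floors cover counting error only. A few genes of these lists are counted but not reported by name here.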

Additional observations from a re-analysis of the deposited data

How the results depend on the processing

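Of 180 values of the 10 genes over 18 alternatives, 155 kept their direction and their side of the threshold. St6gal1, St3gal1, St3gal6 and Neu3 kept both in all 18. St3gal3, near 0, turned to log2 0.0043 with DESeq2 size factors, 0.018 by library size, 0.0019 with no filter, 0.0043 by DESeq2, 0.0036 without CT010467.1, 0.098 on TPM with a pseudocount of 1 (with or without a filter), 0.11 with 0.1, 0.061 on 6 libraries, and between -0.016 and 0.016 with 1 library left out. St6galnac4 turned to 0.00029 on TPM of 6 libraries. St6galnac2 turned to -0.11, -0.21 and -0.11 on TPM of 5 libraries (pseudocount 1, pseudocount 0.1, no filter) and lay between -0.12 and 0.22 with 1 library left out; the cause was not tested. Limma on TPM with no filter called fewer genes: 669 higher and 820 lower of all, 1 of the 10 genes higher (St3gal1) and 2 lower. In the lists it called 1 lower of the other sialyltransferases and sialidases, 1 higher and 2 lower of sialic acid synthesis, transport and turnover, 1 higher and 3 lower of N-glycans, 4 lower of O-glycans, 0 higher and 1 lower of lectins, and 0 higher and 4 lower of glycoproteins. Genes of sialic acid synthesis, transport and turnover called lower numbered 2 in the 3 TPM fits with a filter, and 2 to 5 with 1 library left out. On TPM of 5 libraries with a filter, the calls of Gnpnat1, Siae, Casd1, Mgat5, Galnt6, Gcnt1, Siglec1 and Spn were lost. The list of T cell glycoproteins still had 12 called lower and 3 higher there, so with Spn lost, Ptprc was called in these fits. N-glycan genes called higher numbered 2 to 5 with 1 library left out. All genes called were then 1456 to 1916 higher and 1601 to 2102 lower. The replicate block gave 1634 higher and 1776 lower, and 4 and 3 of the 10 genes. Replicate numbers correlated at -0.148, 0.0517 and 0.255 in deviations from group means, and only those of number 3 correlated best with each other. Deviations from a mean of 3 libraries are tied to each other, so these values cannot decide whether the numbers pair the libraries. The block changed the calls of Renbp and Casd1 among named genes. Depth limits the genes with few counts, such as St8sia6 and Cd22.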

Other observations

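Isoform values of PBS supernatant replicate 2 showed how the other genes of the group were divided among annotated transcripts in that single library. Neu3, St3gal1 and St3gal4 had only 1 listed transcript each, so their share of 100% was fixed and shows no division. The listed St3gal1 transcript ran from 67102875 to 67113992, whereas the gene coordinates used here end at 67176830. That of St3gal4 ran from 35046576 to 35116873, whereas its gene coordinates end at 35119268. For these 2 genes the listed transcripts were thus narrower than the gene coordinates. For Neu1, 76.5% of 29.9 TPM went to its protein-coding transcript and 23.5% to one annotated as a retained intron. For St6galnac4, the main protein-coding transcript held 55.0%, a second 13.7%, and 2 retained-intron transcripts 22.0% and 9.26%. For St3gal3, 4 protein-coding transcripts held 46.9%, 24.2%, 18.1% and 10.8%. For St3gal2, 2 protein-coding transcripts held 87.6% and 12.4%. For St6galnac6, the leading protein-coding transcripts held 45.5% and 31.3%, and a retained-intron transcript 13.3%. For St3gal6, the leading protein-coding transcript held 50.2%, a processed transcript 10.9%, and 2 retained-intron transcripts 1.084% and 1.075%. Gene levels of Neu1, St6galnac4, St6galnac6 and St3gal6 in that library therefore include transcripts not annotated as coding.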
